A study of Mus musculus with 4 samples.

Results

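Interferon-stimulated genes are the genes that cells switch on in response to interferons, and many of their products block the growth of viruses. Of 34745 genes in the deposited tables, the 48 listed interferon-stimulated genes were taken by gene name: 45 were found by the symbol in the tables, and 3 (Ifi207, Ifi209 and Ifi211) by their Ensembl identifier, since the tables carry them as AI607873, Pyhin1 and Mnda. The members are 4 IFIT genes, 6 OAS and OASL genes, 3 genes of the ISG15 system, 13 other antiviral effectors, 6 PYHIN genes, 10 genes of signalling and chromatin, 2 genes of secreted proteins and 4 others. RNA was sequenced from cultured mouse macrophages of 2 genotypes, with 2 libraries each. The control libraries carry the genotype label WT and are called WT replicate 1 and 2; the study describes its controls as mice with floxed G3bp1 alleles. The other libraries carry the genotype label G3bp1mac-/- and are called the KO-labelled libraries 1 and 2; they stand for the same floxed alleles crossed to Lyz2-Cre, a Cre driver that is active in the myeloid lineage at large and not in macrophages alone. The labels give no treatment and no animal age, and nothing in them says that the libraries came from separate animals, so p-values measure the spread between these libraries only. G3BP1 is the RNA-binding protein on which stress granules, condensates of stalled mRNA and protein, assemble.

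Type I interferons bind the receptor IFNAR1/IFNAR2, whose kinases JAK1 and TYK2 phosphorylate STAT factors, STAT2 among them. STAT2 and IRF9 are part of the complex ISGF3, which binds the interferon-stimulated response element (ISRE) in promoters of interferon-stimulated genes. Macrophages express many of these genes at a low level without added interferon, and induce them strongly after contact with microbial products.

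Libraries held 16724241 to 19747909 counts in total, spread over 15468 to 16031 detected genes. In a test across 12418 genes (edgeR quasi-likelihood), 0 genes were called between the genotypes, while 247 were lower and 576 higher at an unadjusted p under 0.05. The targeted gene G3bp1 did not separate the libraries by label: its counts were 1691 and 2875 in WT and 1307 and 2296 in the KO-labelled libraries, or 104, 180, 70.1 and 117 on the CPM scale (counts divided by TMM-adjusted library totals). Its level was lower in the KO-labelled library within each replicate number (log2 ratios of -0.57 and -0.63), but KO-labelled library 2 was above WT replicate 1. The study itself reports efficient loss of G3bp1 mRNA and G3BP1 protein in macrophages of the knockout mice. A count per gene does not show which exons the reads came from. Every direction below is therefore between libraries as labelled. The macrophage label was met by the defining genes, which summed to between 21232 and 26565 CPM.

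Promoter sequences are shown first, because they name the motif through which these genes are known to be read. Promoters (250 bases before to 50 bases after the start, RefSeq, GRCm38.p6) were held for 37 of the 48 members. The ISRE core, searched as GAAANNGAA on both strands, was found in 22 of these 37 (59.5%), against 8.56% of all 32851 promoters and 9.76% of the 27025 genes they belong to. The interferon gamma-activated sequence (GAS) was searched as TTCNNNGAA, which reads the same on both strands. It was found in 5 of 37 members (13.5%), in 8.30% of all promoters and in 9.55% of the genes they belong to. In Bst2 a GAS match overlapped an ISRE match. A match of letters is a description of the window and not a measured binding site.

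The windows below show matches of the genes whose counts are followed most closely, in gene orientation, with the bases of every ISRE match inside a window in capitals. Where matches overlapped, the capitals cover all of them. The first pair belongs to near-identical neighbours of the OAS cluster, the IFIT windows to a cluster on chromosome 19, and the last pair to the PYHIN cluster on chromosome 1.
Oas1a, chr5:120907526-120907552, minus strand: ttctcggGAAATGGAAACTGAAaatct
Oas1g, chr5:120887614-120887638, minus strand: ttctcggGAAATGGAAACTGAAaat
Oas3, chr5:120777713-120777741, minus strand: gggaggaGAAAACGAAAGTGAAgggaggt
Isg15, chr4:156200872-156200900, minus strand: gtagGAAAAGGAAACCGAAACAGAAaata
Ifit1, chr19:34640773-34640801, plus strand: tgcaggcTTCAGTTTCACTTTCcagtctc
Ifit3, chr19:34583364-34583392, plus strand: agtggtaagtTTCACTTTCctcttctggt
Ifit3b, chr19:34607760-34607788, plus strand: agtggtaagtTTCACTTTCctcttctggt
Bst2, chr8:71537581-71537609, minus strand: attccagGAAAATGAAACTGAAaggctgc
Cxcl10, chr5:92349084-92349112, minus strand: tcacgctttgGAAAGTGAAacttacctca
Ifi205, chr1:174031871-174031899, minus strand: ccaggccaggGAAATTGAAagctatgaac
Ifi211, chr1:173913065-173913093, minus strand: caaagccaggGAAATTGAAagctatgaac

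In Oas1a the matched bases lay at positions -20 to -6 from the start and in Oas1g at -18 to -4, and the matched bases were the same. Isg15 carried 3 overlapping matches. The windows of Ifit3 and Ifit3b were identical, and Ifit3 and Ifit3b each held 2 further matches outside the window shown. Ifit1 held 1 further match, at -84 to -76, and Ifi205 held 1 beyond its start. No promoter entry was held for Ifi204, Ifi27l2a, Ly6e, Mx1, Mx2, Oas2, Parp14, Parp9, Rtp4, Tor3a and Usp18.

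Most members were lower in the KO-labelled libraries, but none passed the test. Of the 46 members tested, 45 had a log2 fold change (KO-labelled against WT) below 0 (45.4% of all tested genes) and 1, Cxcl10, was above 0 (54.6%). The median was -0.76, against 0.04 over all tested genes. By the edgeR quasi-likelihood test at an adjusted p under 0.05 and a fold change over 2, 0 members were called lower (0% of all tested genes). The DESeq2 Wald test called 7 lower (0.362% of all tested genes) and the edgeR exact test 5 (0.29%), while limma on log2 FPKM called 0. At an unadjusted p under 0.05 in the quasi-likelihood test, 13 members were lower (1.99% of all tested genes) and 0 were higher (4.64% of all tested genes). These values rest in part on WT replicate 2. Without it the median was -0.15, 9 members were lower at an unadjusted p under 0.05 (5.91% of all tested genes), and 17 of the 46 were above 0 (54.5%). Without WT replicate 1, 26 members had such a p (1.46% of all tested genes). Scaling by library totals without TMM moved the median of all genes from 0.04 to 0.20 and that of the members to -0.62, with Slfn5 and Ifi207 then above 0 as well (68.7% of all tested genes).

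The overlap of the groups was read on the CPM scale. In 22 of the 46 members both KO-labelled libraries lay below both WT libraries, as did 16.9% of all tested genes, and in 0 members both lay above (20% of all genes). Leaving out WT replicate 2 gave 24 members below (34.5% of all genes), and leaving out WT replicate 1 gave 43 (34.7%), since fewer libraries overlap less often. Within both replicate numbers the KO-labelled library was below the WT library of the same number in 32 members (29% of all genes). The log2 ratio was below -1 within both in 10 members (1.05% of all genes), namely Ifit2, Ifit3, Oas1g, Oasl1, Isg15, Usp18, Mx1, Mx2, Rtp4 and Ifi27l2a. In 13 members it was above 0 within number 1 and below 0 within number 2 (21.2% of all genes). Only Cxcl10 was above 0 within both (36% of all genes). Within number 2 alone 45 members were below 0 (50.2% of all genes). The median ratio of the members was -0.34 within number 1 and -0.88 within number 2.

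**Figure D1:**
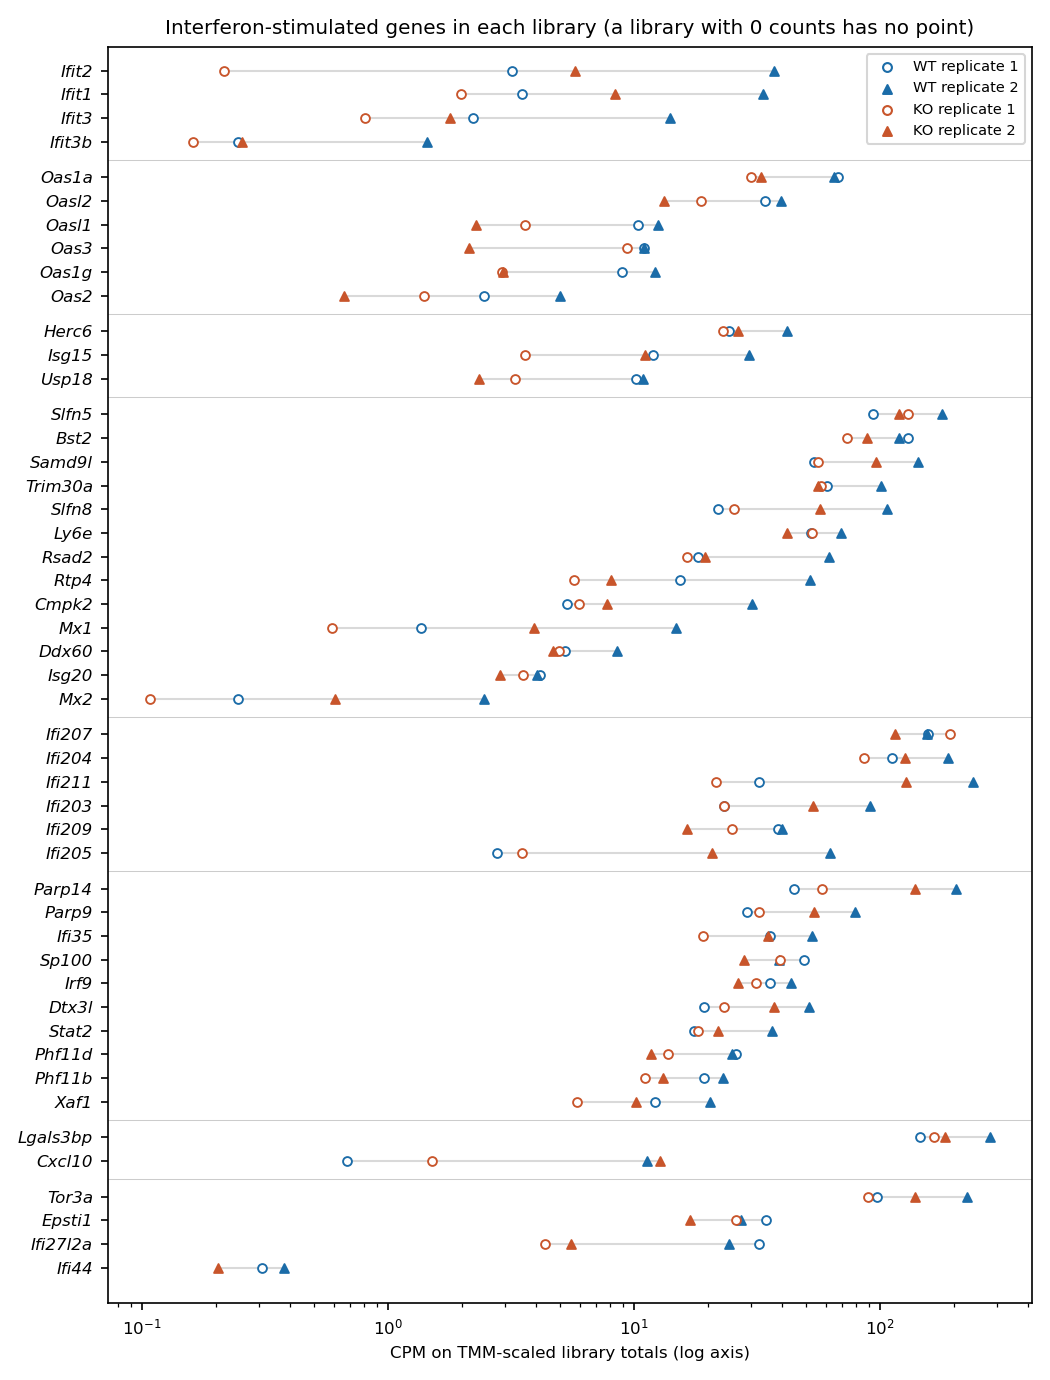
Level of each of the 48 members in each library, in CPM on a log axis, grouped by role in the order IFIT, OAS, ISG15 system, antiviral effectors, PYHIN, signalling and chromatin, secreted, others. Blue marks WT and orange the KO-labelled libraries, open circles number 1 and filled triangles number 2. All 6 OAS genes have both orange points to the left of both blue points, whereas the 3 tested IFIT genes spread widely within each label.

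The OAS genes separated by label in all 4 libraries. They encode enzymes and enzyme-like proteins that bind double-stranded RNA, and lie on mouse chromosome 5. In all 6 both KO-labelled libraries were below both WT libraries (16.9% of all tested genes), 5 of the 6 had an unadjusted p under 0.05 (1.99%), and their median log2 fold change was -1.53. Their summed level was 134 and 146 CPM in WT and 65.7 and 53.9 CPM in the KO-labelled libraries.

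Oas1a, an oligoadenylate synthetase that activates RNase L through its product, had 1097 and 1040 counts in WT and 556 and 644 in the KO-labelled libraries. The WT libraries were close to each other and both KO-labelled libraries lay near the middle of the range from 0 to the WT level. The mean was 66.4 ± 1.67 CPM in WT and 31.3 ± 2.04 CPM in the KO-labelled libraries (SD, n = 2), and the log2 fold change -1.09 ± 0.22 (± is the SE here and for fold changes throughout; edgeR adjusted p = 0.289). Oas1g had 145 and 194 counts in WT and 54 and 58 in the KO-labelled libraries, which gave a fitted log2 difference of -1.85 ± 0.31 (edgeR adjusted p = 0.25). The longest annotated transcripts of Oas1a and Oas1g are 97.5% identical over 1860 aligned bases, and 54.1% of the 50-base stretches of Oas1g occur in Oas1a, so counts may be split between them in a way the tables do not show.

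Oasl1, an OAS-like protein known to hold back translation of Irf7 mRNA, had 169 and 200 counts in WT and 67 and 45 in the KO-labelled libraries. Its log2 fold change was -1.96 ± 0.35 (edgeR adjusted p = 0.262). Oasl2, whose product also carries ubiquitin-like domains, was at 36.9 ± 4.02 CPM in WT and 15.9 ± 3.86 CPM in the KO-labelled libraries (SD, n = 2; log2 fold change -1.21, edgeR adjusted p = 0.312). In both genes the gap between the labels was wider than the gap within either. Oas2 was low: WT libraries had 40 and 80 counts, the KO-labelled ones 26 and 13 (log2 fold change -1.86, edgeR adjusted p = 0.555). Oas3 was the least even, at 11 CPM in both WT libraries but at 9.33 and 2.13 CPM in the KO-labelled ones, so that the size of its difference rests on KO-labelled library 2 (log2 fold change -0.94, and -0.23 without that library).

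The ISG15 system adds the ubiquitin-like protein ISG15 to other proteins and removes it again. Usp18, the protease that removes ISG15 and also restrains IFNAR signalling, had 166 and 174 counts in WT and 61 and 46 in the KO-labelled libraries. It was at 10.6 ± 0.485 CPM in WT and 2.80 ± 0.662 CPM in the KO-labelled libraries (SD, n = 2), or 26.5% of WT, which gave a fitted log2 difference of -1.91 ± 0.32 (edgeR adjusted p = 0.25). Both numbers showed it, with log2 ratios of -1.64 (number 1) and -2.21 (number 2). Isg15 itself had 194 and 466 counts in WT and 67 and 219 in the KO-labelled libraries. On the CPM scale (12, 29.2, 3.59 and 11.1) the groups just failed to overlap, while KO-labelled library 2 had more raw counts than WT replicate 1. The log2 fold change was -1.48 ± 0.68 (edgeR adjusted p = 0.837), and -1.73 and -1.39 within the numbers. It was -0.73 without WT replicate 2 and -0.89 without KO-labelled library 1. Herc6, the ligase that attaches ISG15 in mice, had 395 and 670 counts in WT and 428 and 523 in the KO-labelled libraries, and its groups overlapped (log2 fold change -0.42).

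The IFIT genes had the lowest median of the role groups, -2.64, and wide errors. They encode proteins that bind foreign RNA ends, and Ifit2, Ifit3, Ifit3b and Ifit1 lie side by side on chromosome 19 from 34550694 to 34650009 (GRCm38). Ifit1 had 57 and 531 counts in WT and 37 and 164 in the KO-labelled libraries. Ifit2 had 52 and 588 counts in WT and 4 and 113 in the KO-labelled libraries. Ifit3 had 36 and 223 counts in WT and 15 and 35 in the KO-labelled libraries. In all 3 both libraries numbered 2 were over 2-fold above those numbered 1 of the same label, and only in Ifit3 did the groups not overlap.

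Their log2 fold changes were -1.83 ± 1.16 for Ifit1, -2.74 ± 1.59 for Ifit2 and -2.64 ± 0.95 for Ifit3, and only the last had an unadjusted p under 0.05 (edgeR adjusted p = 0.679). Without WT replicate 2 the value of Ifit1 was 0.52, that of Ifit2 -0.14 and that of Ifit3 -0.81. Within number 1 the log2 ratios were -0.82, -3.74 and -1.44 for Ifit1, Ifit2 and Ifit3, and within number 2 they were -2.0, -2.68 and -2.96. Ifit3b had 4, 23, 3 and 5 counts in WT replicates 1 and 2 and KO-labelled libraries 1 and 2, and was not tested. The longest transcripts of Ifit3 and Ifit3b are 98.0% identical over 1697 aligned bases, and 44.5% of the 50-base stretches of Ifit3b occur in Ifit3, so the counts of Ifit3b are uncertain.

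Among the 13 other antiviral effectors, 13 had log2 fold changes below 0 (45.4% of all tested genes) with a median of -0.62, and Bst2 and Rtp4 had an unadjusted p under 0.05 (1.99%). Bst2, which encodes tetherin, a membrane protein that holds budding virions at the cell surface, had the highest level per length of all members, 155 FPKM on average in WT (FPKM, fragments scaled to gene length and library total). It had 2111 and 1895 counts in WT and 1365 and 1737 in the KO-labelled libraries. On the CPM scale (130, 119, 73.2 and 88.2) both KO-labelled libraries were lower, which gave a fitted log2 difference of -0.62 ± 0.23 (edgeR adjusted p = 0.701). Rtp4, a chaperone-like protein induced by interferon, had 249 and 830 counts in WT and 106 and 159 in the KO-labelled libraries. Its log2 fold change was -2.29 ± 0.62 (edgeR adjusted p = 0.448), and -1.43 and -2.69 within the numbers. It was -1.19 without WT replicate 2. Both KO-labelled libraries were below both WT libraries although the WT libraries themselves differed more than 2-fold.

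Mx1 and Mx2, dynamin-like GTPases that trap viral components, were low and uneven. Mx1 had 22 and 237 counts in WT and 11 and 77 in the KO-labelled libraries. Mx2, annotated as a polymorphic pseudogene, had 4 and 39 counts in WT and 2 and 12 in the KO-labelled libraries. The groups of both genes overlapped, and without WT replicate 2 their log2 fold changes of -1.84 and -1.87 became 0.70 and 0.51. Rsad2, the radical-SAM enzyme viperin, was at 18.1 CPM in WT replicate 1, 16.5 and 19.3 CPM in the KO-labelled libraries and 62.2 CPM in WT replicate 2, and its log2 fold change of -1.16 was -0.05 without the latter. Cmpk2, a mitochondrial nucleotide kinase encoded beside Rsad2 on chromosome 12, showed the same order of WT replicate 2 above the rest, at 5.36 and 30.1 CPM in WT and 5.95 and 7.77 CPM in the KO-labelled libraries. In both genes 3 libraries were alike and WT replicate 2 was high.

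The other effectors had fitted log2 fold changes from -0.12 for Slfn5 to -0.64 for Slfn8. Trim30a, Ddx60 and Isg20, the last an exonuclease of single-stranded RNA, had both KO-labelled libraries below both WT libraries, at log2 fold changes of -0.52, -0.52 and -0.35. For Trim30a and Ddx60 the KO-labelled libraries lay just below WT replicate 1, with WT replicate 2 well above. Ly6e, Samd9l, Slfn5 and Slfn8, like Cmpk2, were above 0 within number 1 and below 0 within number 2, and Samd9l, Slfn5, Slfn8 and Cmpk2 were above 0 overall without WT replicate 2.

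**Figure D2:**
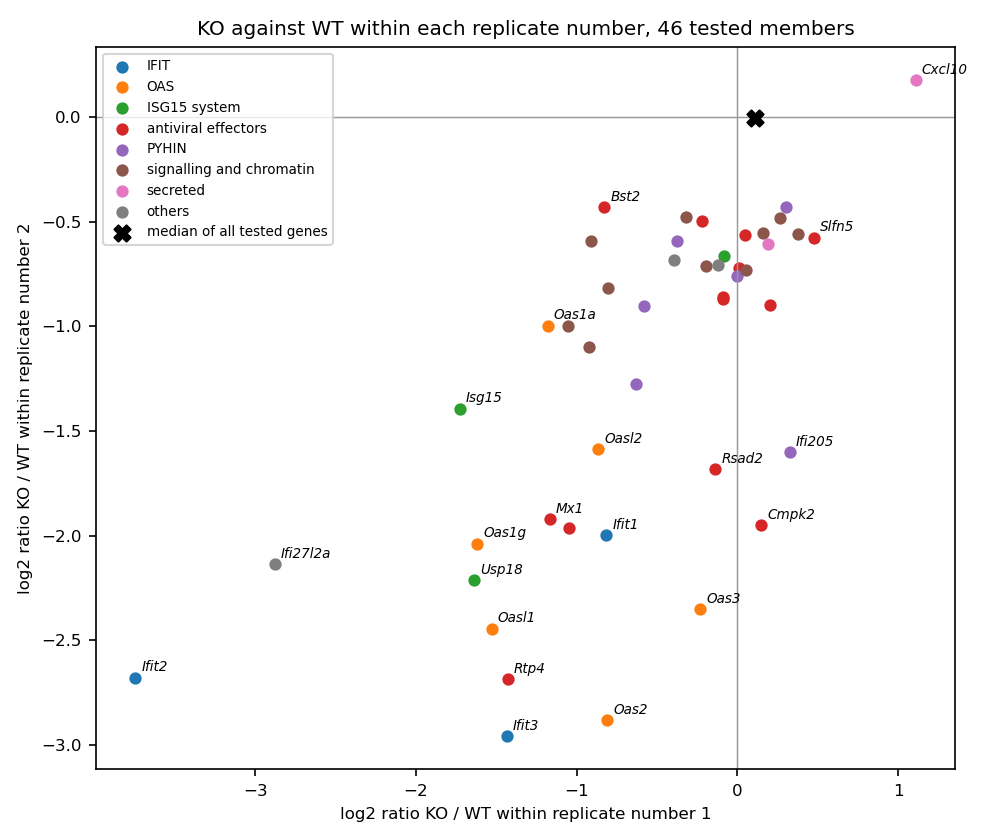
Log2 ratio of the KO-labelled to the WT library within replicate number 1 (horizontal) and within number 2 (vertical) for the 46 tested members, coloured by role, with 0.5 counts added to each count. The black cross is the median of all tested genes at 0.11 and 0.00; 32 members lie below 0 on both axes, 13 below 0 only within number 2, and Cxcl10 above 0 on both.

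The PYHIN genes encode proteins with a pyrin domain and a DNA-binding HIN domain, and lie in a cluster on chromosome 1. Ifi209 was the only one of the 6 with an unadjusted p under 0.05 (1.99% of all tested genes). It was also the only one with groups that did not overlap, a share of 16.7% beside 16.9% of all tested genes. It had 626 and 636 counts in WT and 465 and 324 in the KO-labelled libraries (log2 fold change -0.92 ± 0.28, edgeR adjusted p = 0.528). Ifi211 had 524 and 3810 counts in WT and 402 and 2517 in the KO-labelled libraries. Ifi205 had 45 and 1002 counts in WT and 65 and 408 in the KO-labelled libraries. Both were many times higher in the libraries numbered 2 of either label, and their values of -0.86 and -1.44 became 1.18 and 2.09 without WT replicate 2. Ifi204, at 151 ± 55.3 CPM in WT and 106 ± 28.2 CPM in the KO-labelled libraries, and Ifi203, at 57.0 ± 47.9 and 38.4 ± 21.6 CPM, overlapped between labels (SD, n = 2). Ifi207 was at 156 ± 1.64 and 154 ± 55.4 CPM, so that the log2 fold change was -0.02, within a 95% interval of -0.82 to 0.79. Ifi203 and Ifi211 overlap the gene Mndal on the same strand, so reads there may have been counted for either gene.

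Stat2 and Irf9, the members that belong to ISGF3, were at 74.5% and 73.0% of the WT mean. Stat2 had 285 and 582 counts in WT and 340 and 434 in the KO-labelled libraries (log2 fold change -0.42 ± 0.39), and stood at 0.17 without WT replicate 2. Irf9 had 581 and 691 counts in WT and 584 and 521 in the KO-labelled libraries, and on the CPM scale both KO-labelled libraries were below both WT libraries (log2 fold change -0.45 ± 0.24, edgeR adjusted p = 0.853). Irf9 overlaps Rnf31 on the same strand. The PHD finger genes Phf11b and Phf11d were the members of this group with an unadjusted p under 0.05. Phf11b had 313 and 366 counts in WT and 206 and 257 in the KO-labelled libraries, and the log2 ratio was -0.80 for number 1 and -0.81 for number 2. Phf11d had 422 and 399 counts in WT and 256 and 230 in the KO-labelled libraries (log2 fold change -1.01 ± 0.23, edgeR adjusted p = 0.319). In both genes the libraries of one label were near each other and apart from those of the other.

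Xaf1, which encodes an antagonist of the apoptosis inhibitor XIAP, had 197 and 325 counts in WT and 109 and 201 in the KO-labelled libraries (log2 fold change -1.02 ± 0.42, edgeR adjusted p = 0.776), with values of -0.63 without WT replicate 2 and -0.67 without KO-labelled library 1. Ifi35 was at 35.7 and 52.9 CPM in WT and 19.0 and 35.0 CPM in the KO-labelled libraries, and Xaf1 and Ifi35 both kept the KO-labelled libraries below the WT libraries by a narrow margin. Sp100, a protein of nuclear bodies, had a log2 fold change of -0.39 and overlapping groups. Parp9 and its partner ubiquitin ligase Dtx3l, which overlap on opposite strands, and Parp14 had values of -0.32, -0.24 and -0.34, which became 0.54, 0.61 and 1.11 without WT replicate 2.

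The chemokine gene Cxcl10 had 11 and 180 counts in WT and 28 and 252 in the KO-labelled libraries. It followed the replicate number more than the label: its log2 difference of number 2 over number 1 was 4.0 in WT and 3.07 in the KO-labelled libraries, and its log2 fold change between labels was 0.26 (95% interval -3.28 to 3.80). Lgals3bp, a secreted glycoprotein, had 2353 and 4461 counts in WT and 3090 and 3622 in the KO-labelled libraries, with both KO-labelled libraries between the WT libraries (log2 fold change -0.28, and 0.24 without WT replicate 2).

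Ifi27l2a, a small hydrophobic protein strongly induced by type I interferon, had the lowest unadjusted p of all members. It had 521 and 389 counts in WT and 81 and 109 in the KO-labelled libraries, or 28.2 ± 5.45 and 4.94 ± 0.842 CPM (SD, n = 2). The KO-labelled level was 17.5% of WT, which gave a fitted log2 difference of -2.51 ± 0.29 (edgeR adjusted p = 0.216). The ratio was -2.88 within number 1 and -2.14 within number 2. Epsti1 had 556 and 433 counts in WT and 486 and 333 in the KO-labelled libraries (log2 fold change -0.52 ± 0.30). Tor3a, an ATPase of the torsin family, had 1571 and 3609 counts in WT and 1661 and 2730 in the KO-labelled libraries. Its log2 fold change was -0.51 ± 0.48, and 0.20 without WT replicate 2. Epsti1 was separated by label on the CPM scale, and Tor3a was not. Ifi44 had 5 and 6 counts in WT and 0 and 4 in the KO-labelled libraries and was not tested. The count of 0 allows up to 0.161 CPM in that library, counting error only.

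The members also differed in how well the WT libraries agreed. In 21 of the 46 tested members WT replicate 2 was over 2-fold above WT replicate 1 (8.73% of all tested genes), among them the 3 tested IFIT genes, Mx1, Mx2, Rsad2, Cmpk2, Rtp4, Isg15, Ifi205 and Ifi211. In 12 members KO-labelled library 2 was over 2-fold above KO-labelled library 1 (5.5% of all tested genes). All 12 were among the 21 (57.1% of these). Of all tested genes, 542 met both conditions, 50% of those that met the first and 79.4% of those that met the second. In 4 of the 21 both KO-labelled libraries were below both WT libraries (1.29% of all genes of that kind), and in 18 of the other 25 (18.4% of all genes of that kind). The median log2 ratio of the 21 was -0.12 within number 1 and -1.39 within number 2. For the other 25 it was -0.39 and -0.81. The WT libraries enter both the split and the comparison of labels, so these values describe the members and are not a test.

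Of the members with a promoter entry, 11 of 14 with WT replicate 2 over 2-fold above WT replicate 1 held an ISRE core match, and 5 of 9 with an unadjusted p under 0.05. The share over all members with an entry was 59.5%.

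**Figure D3:**
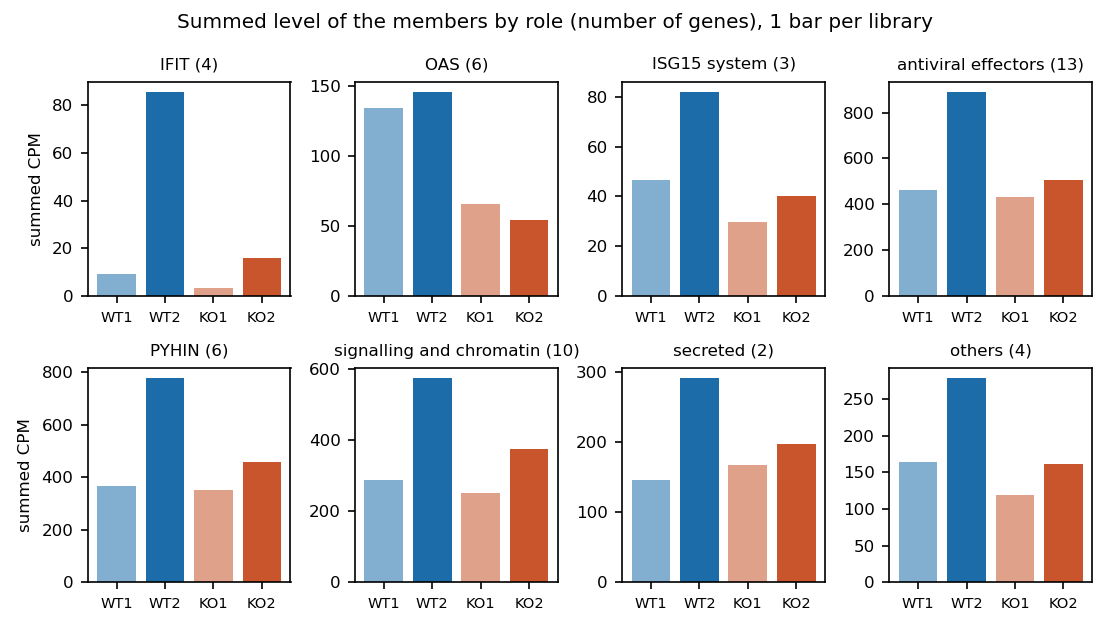
Summed CPM of the members of each role in WT replicates 1 and 2 (blue, light and dark) and KO-labelled libraries 1 and 2 (orange, light and dark), with the number of genes in brackets; each panel has its own axis from 0. The OAS panel is the one where the WT bars are alike (134 and 146 CPM) and both orange bars are lower (65.7 and 53.9 CPM); in the IFIT panel WT replicate 2 reaches 85.6 CPM against 9.18, 3.16 and 16.1 CPM elsewhere.

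The 48 members summed to 1615 and 3125 CPM in WT and 1421 and 1810 CPM in the KO-labelled libraries. Per length, the order of levels in WT was led by Bst2 (155 FPKM), Ifi211 (71.7 FPKM), Ifi27l2a (57.9 FPKM), Lgals3bp (46.5 FPKM) and Ifi207 (37.8 FPKM). Bst2 stood clear of the next in every library but WT replicate 2, where Ifi211 reached 126 FPKM beside 147 FPKM for Bst2. The ranges of Ifi211 and Ifi27l2a over the WT libraries overlapped, as did those of Lgals3bp and Ifi207. In the KO-labelled libraries Bst2 was again first, and Ifi27l2a was eleventh of the 48 by mean FPKM (rank 11, 11.2 FPKM). The lowest levels in WT were those of Ifi44 (0.0431 FPKM), Mx2 (0.25 FPKM) and Ifit3b (0.399 FPKM).

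Beside the members, 108 other genes were found and 78 of them tested. They were ligands, receptors, signalling factors, inhibitors and sensors of the interferon pathway, and 45 further genes. Some of the 45 belong to the members' own families, and others, such as Eif2ak2, Adar, Rnf213 and Ifitm3, do not. Of the 78 tested genes 7 were lower at an unadjusted p under 0.05 (1.99% of all tested genes) and 0 higher (4.64%). The median log2 fold change of the 78 was -0.20. None was called by the edgeR quasi-likelihood test. Leaving out KO-labelled library 1 gave 3 (0.765% of all tested genes), WT replicate 2 gave 5 (5.91%, a share close to that of the pathway genes) and WT replicate 1 gave 14 (1.46%). Of the 78, 18 (23.1%) had both KO-labelled libraries below both WT libraries, against 16.9% of all tested genes, and 4 (Ptpn1, Mavs, Phf11c and Parp10) had both above, against 20%.

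Interferon ligand transcripts were nearly absent. Of 21 ligand genes 19 had no count in any library, Ifnb1 had 1 count in WT replicate 2 and Ifnz 1 count in KO-labelled library 1. The limit set by a count of 0 was 0.152 to 0.188 CPM, depending on the library.

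The 5 tested receptor genes had a median of -0.12. Ifnlr1, the receptor gene too low to test, had 1 and 0 counts in WT and 4 and 9 in the KO-labelled libraries. Ifnar1 had 1267 and 4095 counts in WT and 1860 and 4601 in the KO-labelled libraries, high in the libraries numbered 2 of both labels, with a log2 fold change of -0.01 that was above 0 without TMM scaling (0.12). Ifnar2 had 2398 and 3624 counts in WT and 2205 and 4066 in the KO-labelled libraries (log2 fold change -0.21). Jak1 had 3426 and 5109 counts in WT and 5109 and 6485 in the KO-labelled libraries (0.18), and Tyk2 had 603 and 944 counts in WT and 781 and 1025 in the KO-labelled libraries (-0.04, and 0.11 without TMM scaling). The groups of all 4 genes overlapped.

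Among the IRF factors Irf7 and Irf4 stood out from the others. Irf7, the factor that drives expression of interferon alpha genes and is itself interferon-stimulated, had 239 and 286 counts in WT and 124 and 106 in the KO-labelled libraries. Its log2 fold change was -1.44 ± 0.28 (edgeR adjusted p = 0.284). Irf4, a factor of lymphocytes and of alternatively activated macrophages, had 178 and 183 counts in WT and 80 and 54 in the KO-labelled libraries (log2 fold change -1.67 ± 0.34, edgeR adjusted p = 0.289). In both the WT libraries were alike and both KO-labelled libraries lower. Irf1 had 379 and 3559 counts in WT and 376 and 2472 in the KO-labelled libraries, and its value of -0.76 became 1.61 without WT replicate 2. Irf3, which is activated by phosphorylation rather than by induction, had 776 and 787 counts in WT and 758 and 914 in the KO-labelled libraries (log2 fold change -0.16). On the CPM scale (47.8 and 49.4 in WT, 40.6 and 46.4 in the KO-labelled libraries) its groups did not overlap either, by a narrower margin.

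Inhibitors and sensors had medians of -0.16 over 10 genes and -0.15 over 14 genes, and 0 of either had an unadjusted p under 0.05. That share was small among all tested genes too (1.99% lower and 4.64% higher). Socs1, the feedback inhibitor of JAK kinases, had 20 and 48 counts in WT and 8 and 34 in the KO-labelled libraries. The 37 tested further genes, of the members' own families and of others, had a median of -0.38. Among these 37, 5 had an unadjusted p under 0.05 (1.99% of all tested genes). Ifi213 had 11 and 28 counts in WT and 3 and 3 in the KO-labelled libraries. Slfn1 had 43 and 161 counts in WT and 19 and 25 in the KO-labelled libraries (log2 fold change -2.47, and -1.24 without WT replicate 2), and Trim30c had 11 and 26 in WT and 4 and 6. Phf11a and Ifi27 were the others, at 48.2% and 58.6% of the WT mean CPM (log2 fold changes -1.05 and -0.77). All 5 had both KO-labelled libraries below both WT libraries, but they were selected by a p-value from the same libraries, so this is not separate support. Of all 37, 14 (37.8%) had both below, against 16.9% of all tested genes.

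**Figure D4:**
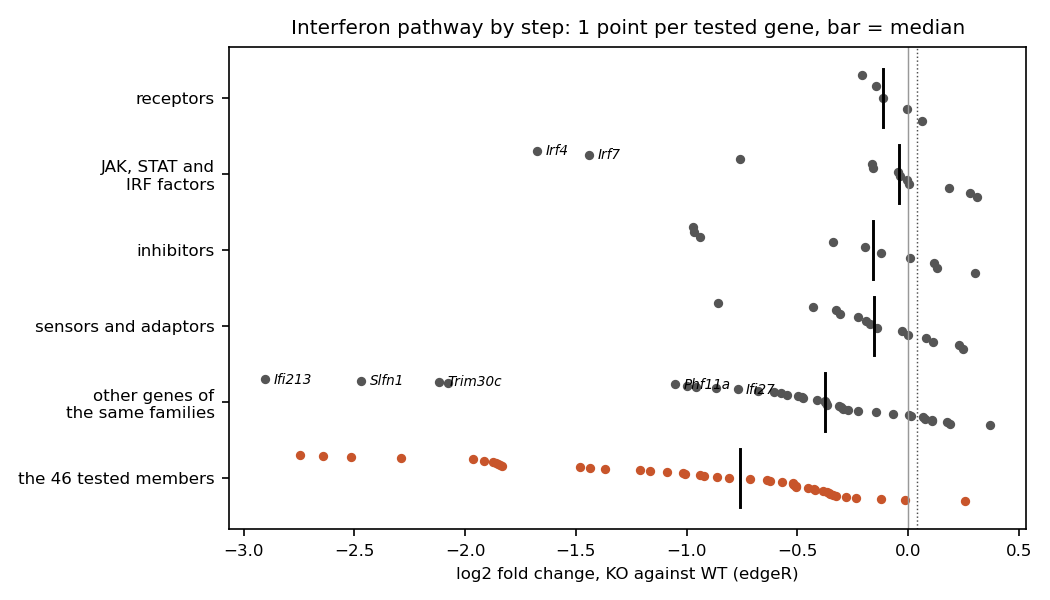
Log2 fold change (KO-labelled against WT, edgeR) of each tested gene by step of the interferon pathway, with the 46 tested members in orange at the bottom; black bars are medians, the solid line is 0 and the dotted line is the median of all tested genes, 0.04. Medians lie between -0.04 and -0.38 for the other steps and at -0.76 for the members. The pathway genes with an unadjusted p under 0.05 are named. The row of other genes of the same families also holds genes of other families.

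Marker genes of other cell types moved with the label beside these results. Stromal markers summed to 75.3 and 88.7 CPM in WT and 331 and 304 CPM in the KO-labelled libraries, with 8 of 9 genes above in both. Markers of B cells summed to 22.1 and 23.0 CPM in WT and 12 and 11.4 CPM in the KO-labelled libraries (6 of 7 genes below), and erythroid markers to 12.1 and 8.40 against 2.04 and 3.0 CPM (6 of 7 below). Neutrophil markers summed to 39.8 and 37.8 CPM against 21.0 and 25.0 CPM (4 of 10 below, with Ly6g, Ngp, Elane and Mpo at 3 counts or fewer in each library), and mast cell and basophil markers to 32.9 and 34.0 against 17.6 and 21.0 CPM (3 of 6 below). Endothelial markers summed to 33.1 and 24 CPM in WT and 56.4 and 37.7 CPM in the KO-labelled libraries (1 of 6 above), and T and NK cell markers to 4.74 and 3.51 against 2.63 and 2.13 CPM (4 of 9 below). Their part in the values of the members was not tested. Markers of plasmacytoid dendritic cells, a cell type known for making interferon, summed to 28.1 and 26.8 CPM in WT and 33.2 and 29.6 CPM in the KO-labelled libraries, and its defining genes Siglech, Klk1 and Pacsin1 had at most 3 counts in each library. Conventional dendritic cell markers summed to between 6.22 and 8.97 CPM in all libraries. In bulk libraries, fewer cells of a type and less RNA per cell cannot be told apart.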

How the data were processed

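RNA of 4 libraries was compared, 2 labelled WT and 2 labelled G3bp1mac-/-. The authors filtered reads with Seqtk, aligned them with HISAT2 2.0.4 and counted fragments per gene with StringTie 1.3.3b, and deposited raw counts and FPKM for each library. All 8 value columns belonged to these libraries and 0 were left unused. The authors' FPKM carry only the library total and gene length. The submitters' processing notes list mm39, but of 34267 identifiers shared with GENCODE M21, 27699 (80.8%) shared both ends with that GRCm38 annotation, and GRCm38 positions are printed. Use of strand in counting is not given in the sources used here.

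The members and lists were chosen with earlier results of these data known. filterByExpr (count 10, total 15) left 12418 of 17991 genes with a count. Libraries were scaled by TMM (factors 0.955, 0.942, 1.11 and 0.997) and tested two-sided with glmQLFit and glmQLFTest (edgeR 4.0.16, R 4.3.3), genotype as the only term, with Benjamini-Hochberg adjustment over all tested genes. Calls needed an adjusted p below 0.05 with a log2 fold change beyond 1 in either direction. Within-number ratios used TMM-scaled counts plus 0.5. A library's depth sets its floor: 3 counts equal 0.152 to 0.188 CPM on TMM-scaled totals, counting error only. Counts of every library were printed for 27 members: in each role the 3 with the largest absolute log2 fold change and the one with the highest mean FPKM, and always Isg15, Usp18, Irf9, Stat2, Bst2, Cxcl10 and Lgals3bp. Counts of every library are also given for Ifit3b and Ifi44, the 2 members not tested, and other members by selected values or ranges. The values of 1 pathway gene are not reported here.

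Alternatives were DESeq2 1.42.0 (Wald test and size factors), the edgeR exact test, library totals without TMM, no filter, limma 3.58.1 on log2(FPKM + 1), keeping genes that reached 0.1 FPKM in 2 libraries, a term for the replicate number, no minimum fold change, and each library left out in turn. Matching by the symbol column alone was added after seeing the data. The code was tested on simulated data. Transcript identity came from local alignments of the longest GENCODE M21 transcripts (Biopython 1.88).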

Additional observations from a re-analysis of the deposited data

How the results depend on the processing

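The 0 members called lower became 7 in the DESeq2 Wald test and 5 in the edgeR exact test, and stayed 0 with DESeq2 size factors, no TMM, no filter, limma, no minimum fold change and each library left out. With a term for the replicate number (replicate block) 17 were called, against 1.37% of all genes called lower, and the number of members with an unadjusted p under 0.05 became 28 and of pathway genes 19 (9.37% of all genes). The labels do not say what a number stands for and there are only 2 pairs, so the numbers do not count as pairing; libraries with the same number deviated together from the means of their labels (correlation 0.69 across genes). The median of the members was -0.35 with limma. The cause of these shifts was not tested.

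With each library left out in turn, the median ran from -1.04 to -0.15, members with an unadjusted p under 0.05 from 9 to 26, such pathway genes from 3 to 14 (all genes 0.765% to 5.91%), and members without overlap from 24 to 43 (all genes 29.4% to 34.7%). A library left alone in its group was assumed to vary like the other group. Log2 fold changes that crossed 0 ran from -3.21 to 0.52 (Ifit1), -3.76 to 0.70 (Mx1), -3.56 to 0.51 (Mx2), -2.13 to 0.32 (Cmpk2), -0.90 to 0.47 (Samd9l), -0.51 to 0.39 (Slfn5), -1.36 to 0.87 (Slfn8), -1.30 to 0.70 (Ifi203), -3.23 to 2.09 (Ifi205), -0.44 to 0.31 (Ifi207), -2.65 to 1.18 (Ifi211), -0.85 to 0.17 (Stat2), -0.87 to 0.54 (Parp9), -1.10 to 1.11 (Parp14), -0.78 to 0.61 (Dtx3l), -1.99 to 3.35 (Cxcl10), -0.67 to 0.24 (Lgals3bp), -0.99 to 0.20 (Tor3a), -0.75 to 1.06 (Ifnar1), -0.67 to 0.14 (Ifnar2), -0.084 to 0.48 (Jak1), -0.33 to 0.31 (Tyk2) and -2.61 to 1.61 (Irf1). Among the other settings, values also crossed 0 without TMM for Slfn5 (0.039), Ifi207 (0.16), Ifnar1 (0.12) and Tyk2 (0.11), with limma for Slfn5 (0.10), Ifi207 (0.089), Parp14 (0.023), Dtx3l (0.014), Ifnar1 (0.23) and Tyk2 (0.13), and with the replicate block for Ifnar1 (0.11).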
